A study of Arabidopsis thaliana with 12 samples.

Results

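The genes described here are the A, B and D cyclins and the cyclin-dependent kinases (CDKs) of Arabidopsis thaliana, taken as the rows of the deposited table whose gene symbol starts with CYCA, CYCB, CYCD or CDK. The rule found 44 genes of 34218, among them 10 A cyclins, 11 B cyclins and 10 D cyclins. Of the 44 genes, 20 had a mean of at least 1 FPKM (reads scaled to exon length and library size) over all 12 libraries and entered the tests. The other 24 are described by level only. The members just inside that level were CYCD4-2 at a mean of 1.07 FPKM and CDKB2-2 at 1.15 FPKM, and those just outside it were CYCB1;5 at 0.857 FPKM and CYCA2-2 at 0.795 FPKM.

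RNA was sequenced from wild-type Col-0 and from a line carrying pTaF5H1:TaF5H1, by its name a wheat gene for ferulate 5-hydroxylase, an enzyme of lignin synthesis, under its native promoter. Seedlings aged 14 days were kept for 6 h in nutrient solution or in 200 mM NaCl, which gave the groups untreated wild type, salt-treated wild type, untreated line and salt-treated line, with 3 libraries each. The labels name leaves as the tissue, call the libraries biological replicates, and do not say how many transformants the line represents or in which Arabidopsis cells that promoter acts. The series title names cell wall synthesis and salt tolerance as its subjects.

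In plants, as in other eukaryotes, most CDKs act with a cyclin bound to them, while the CDK-activating kinase CDKF is known to act without one. D cyclins respond to hormones and sugar, pair with CDKA and lead to the release of E2F transcription factors from the retinoblastoma protein, after which S phase genes are expressed. A cyclins act from S phase to mitosis. B cyclins act in mitosis together with CDKA and the plant-specific B-type CDKs, and are then destroyed. Other CDKs work outside the cycle, in transcription and RNA processing. In leaves, division is limited to young tissue, while older cells enlarge and may replicate DNA without dividing.

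Library totals ran from 17173618 to 21651124 counts. The first principal component held 71.6% of the variance and separated salt-treated from untreated libraries. Salt-treated line replicate 1 stood apart from its group, with r of 0.936 and 0.941 with the other libraries, which correlated at 0.994 with each other. The 5 leaf mesophyll markers were expressed in every group, at a summed 16629 to 20303 FPKM in untreated wild type and 4149 to 4425 FPKM after salt. In the line they summed to 13681 to 14597 FPKM untreated and to 522 to 2337 FPKM after salt. The 10 root markers summed to at most 0.36 FPKM. The 5 shoot meristem markers summed to at most 0.74 FPKM in 10 libraries, to 2.56 FPKM in untreated line replicate 2 and to 8.66 FPKM in salt-treated wild type replicate 3, where STM reached 3.14 FPKM and KNAT1 5.28 FPKM. CLV3, a defining gene of the meristem centre, had 0 counts in all libraries. That last library was also the highest of its group for several division genes below. In bulk tissue, fewer cells of a type and less RNA per cell cannot be told apart.

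The sequences around the annotated starts of the cyclins differed in a known cell-cycle motif. The MSA core is the pentamer AACGG, or CCGTT on the other strand, through which three-repeat MYB factors act on genes of G2 and mitosis. It was searched on both strands from 250 bases before to 50 bases after each annotated start, on TAIR10.1, where all 44 members have the coordinates deposited for TAIR10. The core was found in 8 of the 11 B cyclins (72.7%), 4 of the 10 A cyclins (40.0%) and 1 of the 10 D cyclins (10%), against 24.6% of 33895 promoters genome-wide. At least 2 cores were found in 7 of the B cyclins. All cores in CYCB1-4 and CYCB3;1 lie at or after the annotated start, not upstream of it. The E2F site, TTTCCCGC, TTTCGCGC, TTTGCCGC or TTTGGCGC on either strand, was found in 1.61% of all promoters, and CYCA1-2 holds one. A match describes letters and is not a binding site. The 250 bases before the start are shown for a mitotic B cyclin with 4 upstream cores and for CYCA1-2, which holds both motifs, with motif letters in capitals, 5′ to 3′ on the gene's strand (RefSeq sequence, TAIR10.1).
CYCB1-2, chr5:1861704-1861953, minus strand: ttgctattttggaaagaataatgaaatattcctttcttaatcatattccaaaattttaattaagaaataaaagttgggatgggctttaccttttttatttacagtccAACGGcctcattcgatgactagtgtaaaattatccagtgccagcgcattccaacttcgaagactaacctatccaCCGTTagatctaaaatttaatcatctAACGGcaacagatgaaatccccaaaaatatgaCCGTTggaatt
CYCA1-2, chr1:29084286-29084535, minus strand: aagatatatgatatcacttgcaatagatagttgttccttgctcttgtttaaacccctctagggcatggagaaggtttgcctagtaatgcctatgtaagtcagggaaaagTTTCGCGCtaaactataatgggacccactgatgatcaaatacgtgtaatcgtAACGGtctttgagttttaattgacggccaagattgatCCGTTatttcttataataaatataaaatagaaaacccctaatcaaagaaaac
In the first sequence all capitals are MSA cores. In CYCA1-2 the first capitals are an E2F site and the others MSA cores. These genes differ in level: CYCB1-2 averaged 0.554 FPKM and was not tested, and CYCA1-2 averaged 1.85 FPKM and was higher after salt in both genotypes.

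**Figure D1:**
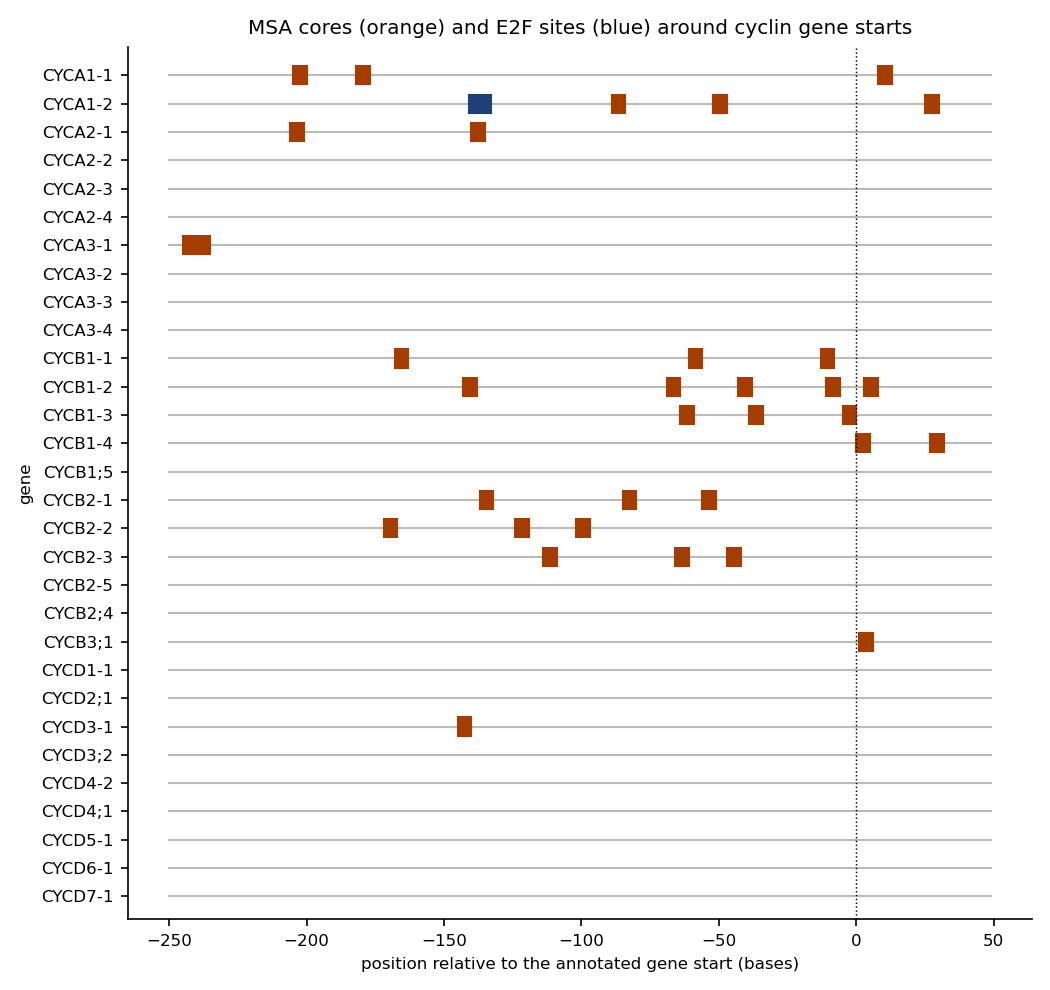
MSA cores (orange) and E2F sites (blue) in the A, B and D cyclin genes (1 D cyclin is not drawn), by position in bases from the annotated start (0). The cores lie mostly in B cyclins (8 of 11 genes) and in 4 of the 10 A cyclins, and an E2F site is drawn in CYCA1-2.

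The members ranged over more than an order of magnitude in level. By mean FPKM, a per-length scale, CDKG1 was the highest at 65.8 FPKM, followed by CDKA-1 at 33.0, CDKC-2 at 22.4, CDKE-1 at 13.3 and CDKF-1 at 12.1 FPKM. Of the cyclins, CYCD2;1 and CYCD3;2 lay highest, at 10.4 and 10.3 FPKM. CDKB2-1 and CDKB2-2, the CDKs of G2 and mitosis, lay at 1.45 and 1.15 FPKM. None of the 11 B cyclins reached 1 FPKM. A mean of at least 1 FPKM was reached in all 4 groups by 13 of the 20 members, in 3 groups by 2 and in 2 groups by 5, so low members passed through the groups where they were high. CDKB2-1, CYCD3-1 and CYCD3-3 passed through the untreated groups, so their falls with salt are a description and no support.

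**Figure D2:**
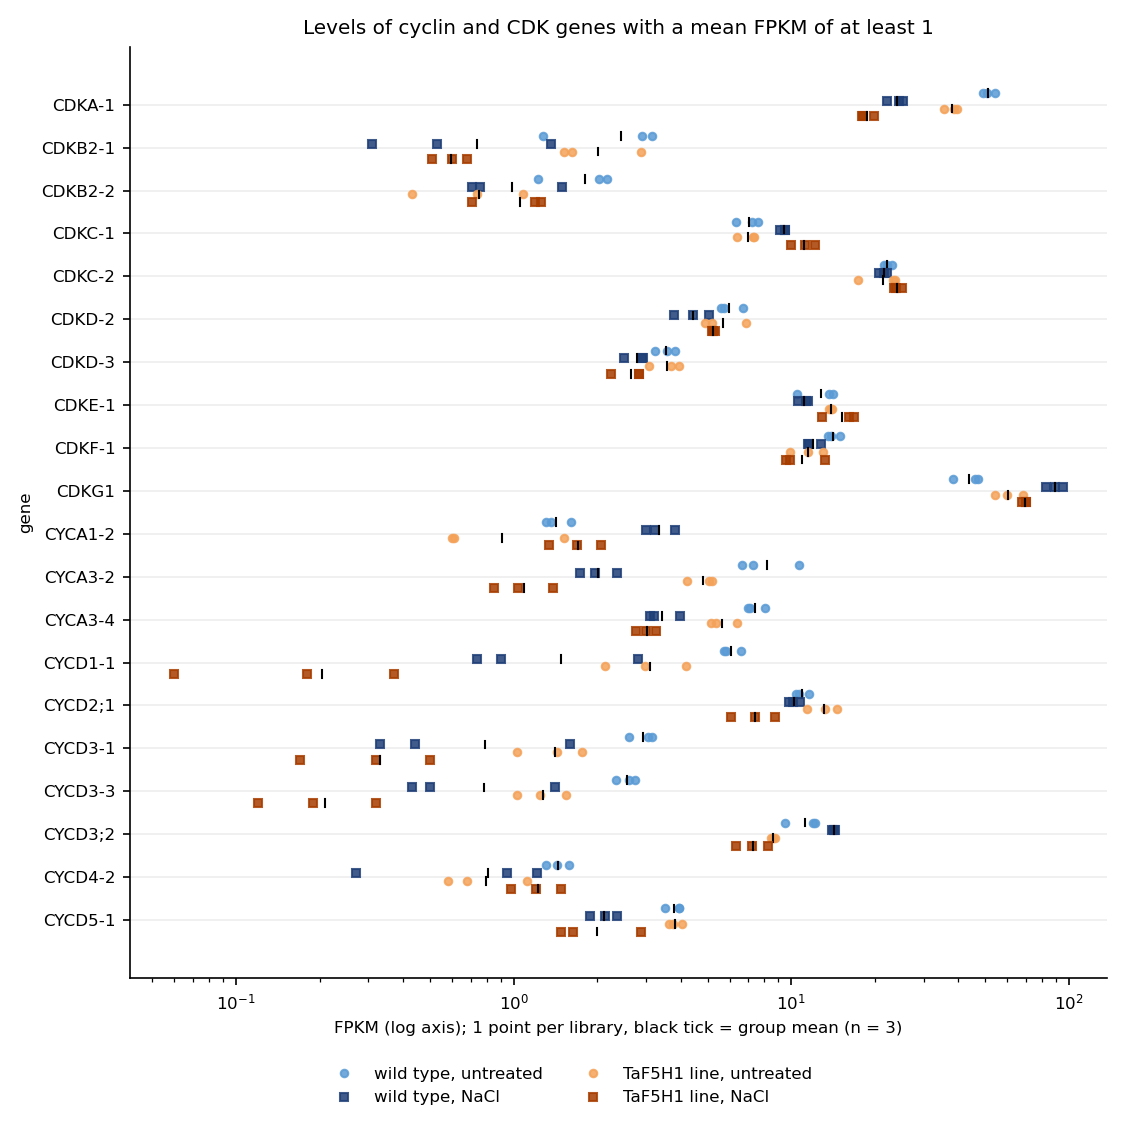
FPKM of the 20 tested cyclin and CDK genes on a log axis, with 1 point per library and a black tick at each group mean (n = 3). CDKG1 and CDKA-1 are the highest, and CYCD1-1 falls from 5.74 to 6.58 FPKM in untreated wild type to 0.06 to 0.37 FPKM in the salt-treated line.

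Salt in wild type changed core cycle genes in both directions. The genes that fell were CDKA-1, CDKB2-1, CYCA3-2, CYCA3-4 and 4 D cyclins (CYCD1-1, CYCD3-1, CYCD3-3 and CYCD5-1), and those that rose were CDKC-1, CDKG1, CYCA1-2 and CYCD3;2. In all, 4 members rose and 8 fell of 20, or 60.0%, where called means an edgeR adjusted p (Benjamini-Hochberg over 17038 genes) under 0.05. The background was near that share: 53.8% of all tested genes were called, 27.1% up and 26.7% down. The members' median log2 fold change (log2FC, salt over untreated) was -0.43, against -0.02 for all genes. That median includes the members that passed the level filter through the untreated groups. Without salt-treated wild type replicate 1 or 2 the count of 8 was 5. The fits scale libraries by their TMM factors and FPKM does not, so log2FC and ratios of FPKM differ somewhat.

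CDKA-1 (AT3G48750, chr3:18071454-18074641), the PSTAIRE-type kinase of the G1 and G2 controls, measured 49.03, 50.64 and 54.35 FPKM in untreated wild type and 22.16, 24.39 and 25.39 FPKM after salt. The groups did not overlap. The log2FC was -0.90 ± 0.10 (SE; adjusted p = 2.06e-05). Each SE of a log2FC is the absolute log2FC over the square root of the F statistic of the edgeR test. CDKB2-1 (AT1G76540), of G2 and mitosis, measured 3.16, 2.90 and 1.28 FPKM untreated and 0.53, 0.31 and 1.37 FPKM after salt, with a log2FC of -1.55 ± 0.51 (adjusted p = 0.0224). CDKB2-1 averaged under 1 FPKM after salt in both genotypes, so it passed the level filter through the untreated groups. Its groups overlapped, through untreated replicate 3 and the salt-treated replicate 3 that held meristem transcripts. That call was not made without untreated wild type replicate 1 (adjusted p = 0.0842) or 2 (0.0644), or without salt-treated wild type replicate 1 (0.0859) or 2 (0.0886). CDKB2-2, its closest copy with 86.0% identity over 957 bases, was not called (log2FC -0.68 ± 0.41, adjusted p = 0.178).

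Of the kinases outside the core cycle, CDKG1 (AT5G63370, chr5:25383810-25387270), a cyclin L partner with roles in splicing and meiotic pairing, rose furthest. It measured 38.30, 45.98 and 46.98 FPKM untreated and 89.37, 82.78 and 95.07 FPKM after salt. All salt-treated libraries lay above all untreated ones, with a log2FC of 1.22 ± 0.13 (adjusted p = 1.61e-05). CDKC-1, a kinase of RNA polymerase II that binds cyclin T, rose from 7.04 ± 0.64 to 9.40 ± 0.22 FPKM (mean ± SD, n = 3; log2FC 0.62 ± 0.12, adjusted p = 0.00138). The mediator kinase CDKE-1 had a log2FC of 0.00 ± 0.13, and the CDK-activating kinases CDKD-2, CDKD-3 and CDKF-1 had log2FC of -0.24, -0.15 and -0.05, none of them called.

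The A cyclins split. CYCA3-2 (AT1G47210), of the G1 to S phase family, measured 10.66, 6.65 and 7.28 FPKM untreated and 2.36, 1.74 and 1.97 FPKM after salt, with no overlap and a log2FC of -1.82 ± 0.24 (adjusted p = 6.3e-05). Its neighbour on chromosome 1, CYCA3-4, fell from 7.40 ± 0.57 to 3.43 ± 0.47 FPKM (n = 3; log2FC -0.92 ± 0.16, adjusted p = 0.000627). CYCA1-2 (AT1G77390), known as TAM and best known for meiosis, measured 1.36, 1.31 and 1.61 FPKM untreated and 3.01, 3.81 and 3.22 FPKM after salt. The groups did not overlap, and it rose by a log2FC of 1.43 ± 0.34 (adjusted p = 0.00394).

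Of the 7 tested D cyclins, 4 fell and 1 rose, beside 26.7% and 27.1% of all tested genes. CYCD1-1 (AT1G70210, chr1:26439556-26443007), a D cyclin known from seed germination, measured 6.58, 5.84 and 5.74 FPKM untreated and 0.90, 0.74 and 2.80 FPKM after salt (log2FC -1.86 ± 0.49, adjusted p = 0.0076). CYCD3-1 and CYCD3-3 set cell number in lateral organs in response to cytokinin. Both averaged under 1 FPKM after salt in each genotype, so they passed the level filter through the untreated groups. CYCD3-1 measured 3.16, 3.05 and 2.60 FPKM untreated and 0.44, 0.33 and 1.60 FPKM after salt (log2FC -1.72 ± 0.51, adjusted p = 0.0134). In CYCD3-3 the values were 2.74, 2.61 and 2.33 FPKM untreated and 0.50, 0.43 and 1.41 FPKM after salt (log2FC -1.53 ± 0.42, adjusted p = 0.00903). CYCD3-1 shares 40 bases with AT4G34150, a same-strand neighbour at a mean of 206.9 FPKM, and how shared reads were counted is not given. In each of these 3 genes salt-treated replicate 3 was the highest of its group, as it was for the meristem markers, whose part in the result was not tested. Without it the log2FC of CYCD3-1 was -2.68, and without salt-treated replicate 1 or 2 CYCD3-1 was not called (adjusted p = 0.0603 and 0.054). The third gene of that subfamily, CYCD3;2 (AT5G67260), went the other way, from 12.15, 12 and 9.51 FPKM to 14.01, 14.26 and 14.42 FPKM. Its groups did not overlap and it rose by a log2FC of 0.54 ± 0.14 (adjusted p = 0.00608), or 0.34 where libraries were scaled by their totals alone.

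CYCD5-1, a D cyclin linked to endoreduplication, went from 3.80 ± 0.26 to 2.12 ± 0.24 FPKM (n = 3; log2FC -0.64 ± 0.25, adjusted p = 0.0455). That call was not made without any 1 library of the 2 groups (adjusted p of 0.0758 to 0.145), without untreated line replicate 1, 2 or 3 (0.0537 to 0.0588), with no filter on low genes (0.0725) or with a replicate block (0.0616). CYCD2;1, which responds to sucrose, and CYCD4-2 were not called (log2FC 0.10 ± 0.15 and -0.62 ± 0.45).

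In the TaF5H1 line, salt lowered CDKA-1, CDKB2-1, both A3 cyclins and 5 D cyclins, and raised CDKC-1, CDKC-2, CDKE-1, CDKG1 and CYCA1-2. Of 20 members, 5 rose and 9 fell, or 70.0%, beside a background of 64.8% of all genes (31.4% up and 33.5% down). Both salt comparisons list CDKA-1, CDKB2-1, CYCA3-2, CYCA3-4, CYCD1-1, CYCD3-1, CYCD3-3 and CYCD5-1 as lower, and CYCD2;1 was called lower here and not called in wild type, with an interaction of -0.67 (adjusted p = 0.0801) that was not called. The count of 9 was 6 without salt-treated line replicate 2. The median log2FC was -0.08, against -0.05 for all genes.

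CDKA-1 measured 35.47, 38.51 and 39.59 FPKM in the untreated line and 18.10, 19.94 and 18.05 FPKM after salt, with no overlap (log2FC -0.76 ± 0.10, adjusted p = 5.86e-05). CYCD1-1 went from 2.13, 2.98 and 4.19 FPKM to 0.37, 0.06 and 0.18 FPKM, which in counts is 108, 152 and 210 against 16, 3 and 8. This was the lowest log2FC among the members, at -3.72 ± 0.61 (adjusted p = 0.000251), and all salt-treated values lay under all untreated ones. CYCD3-3 measured 1.55, 1.03 and 1.25 FPKM untreated and 0.12, 0.32 and 0.19 FPKM after salt (log2FC -2.28 ± 0.50, adjusted p = 0.00173). In CYCD3-1 the means were 1.41 ± 0.37 and 0.33 ± 0.17 FPKM (n = 3; log2FC -1.84 ± 0.56, adjusted p = 0.0128, and 0.0529 without salt-treated line replicate 2). CYCA3-2 measured 4.21, 5.20 and 5.08 FPKM untreated and 1.04, 1.39 and 0.85 FPKM after salt, again with no overlap (log2FC -1.87 ± 0.25, adjusted p = 5.32e-05).

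CDKB2-1 fell from 2.01 ± 0.76 to 0.60 ± 0.09 FPKM (n = 3; log2FC -1.49 ± 0.52, adjusted p = 0.0248), and was not called without untreated line replicate 3 (adjusted p = 0.101) or salt-treated line replicate 2 (0.0754). CYCA3-4 fell by a log2FC of -0.64 ± 0.17 (adjusted p = 0.00499). CYCD2;1 measured 13.29, 14.68 and 11.41 FPKM untreated and 8.72, 6.09 and 7.40 FPKM after salt, all lower (log2FC -0.56 ± 0.15, adjusted p = 0.00659). CYCD5-1 had a log2FC of -0.66 ± 0.25 (adjusted p = 0.0336). Without salt-treated line replicate 1, the library that stood apart, that value was -1.02. The CYCD5-1 call was not made without salt-treated line replicate 2 or 3 (adjusted p = 0.121 and 0.129), any 1 of the untreated line libraries (0.0557 to 0.077), untreated wild type replicate 3 (0.0522) or salt-treated wild type replicate 1 (0.0506).

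CDKC-1 rose from 7.01 ± 0.54 to 11.11 ± 1.11 FPKM (n = 3; log2FC 0.92 ± 0.12, adjusted p = 5.87e-05). CYCA1-2 measured 1.52, 0.60 and 0.61 FPKM untreated and 1.69, 1.34 and 2.07 FPKM after salt. Untreated replicate 1 lay within the range of the salt-treated libraries, and the log2FC was 1.15 ± 0.35 (adjusted p = 0.0132). Without untreated line replicate 1 it was 1.75, and without replicate 2 or 3 it was 0.92 and 0.93 (adjusted p = 0.0505 and 0.0525). CDKG1 measured 59.83, 54.07 and 68.18 FPKM untreated and 70.28, 70.30 and 68.15 FPKM after salt (log2FC 0.46 ± 0.13, adjusted p = 0.00931). CDKC-2 and CDKE-1 had log2FC of 0.42 ± 0.12 (adjusted p = 0.00998) and 0.39 ± 0.13 (adjusted p = 0.0189), with overlapping FPKM as in CDKG1. CDKC-2 overlaps AT5G64970 over 971 bases on the opposite strand, and whether counting used strand is not given. These 3 calls were not made where libraries were scaled by totals alone, which gave log2FC of 0.20 for CDKG1, 0.16 for CDKC-2 and 0.14 for CDKE-1, nor by limma on log2(FPKM + 1). That scaling put the median of all genes at -0.31 for this comparison and at -0.22 for salt in wild type, and the share of calls that were higher at 34.9% and 36.8%, against 48.4% and 50.4% with TMM factors. CDKE-1 was also not called without salt-treated line replicate 2 (adjusted p = 0.0579) or 3 (0.0712).

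**Figure D3:**
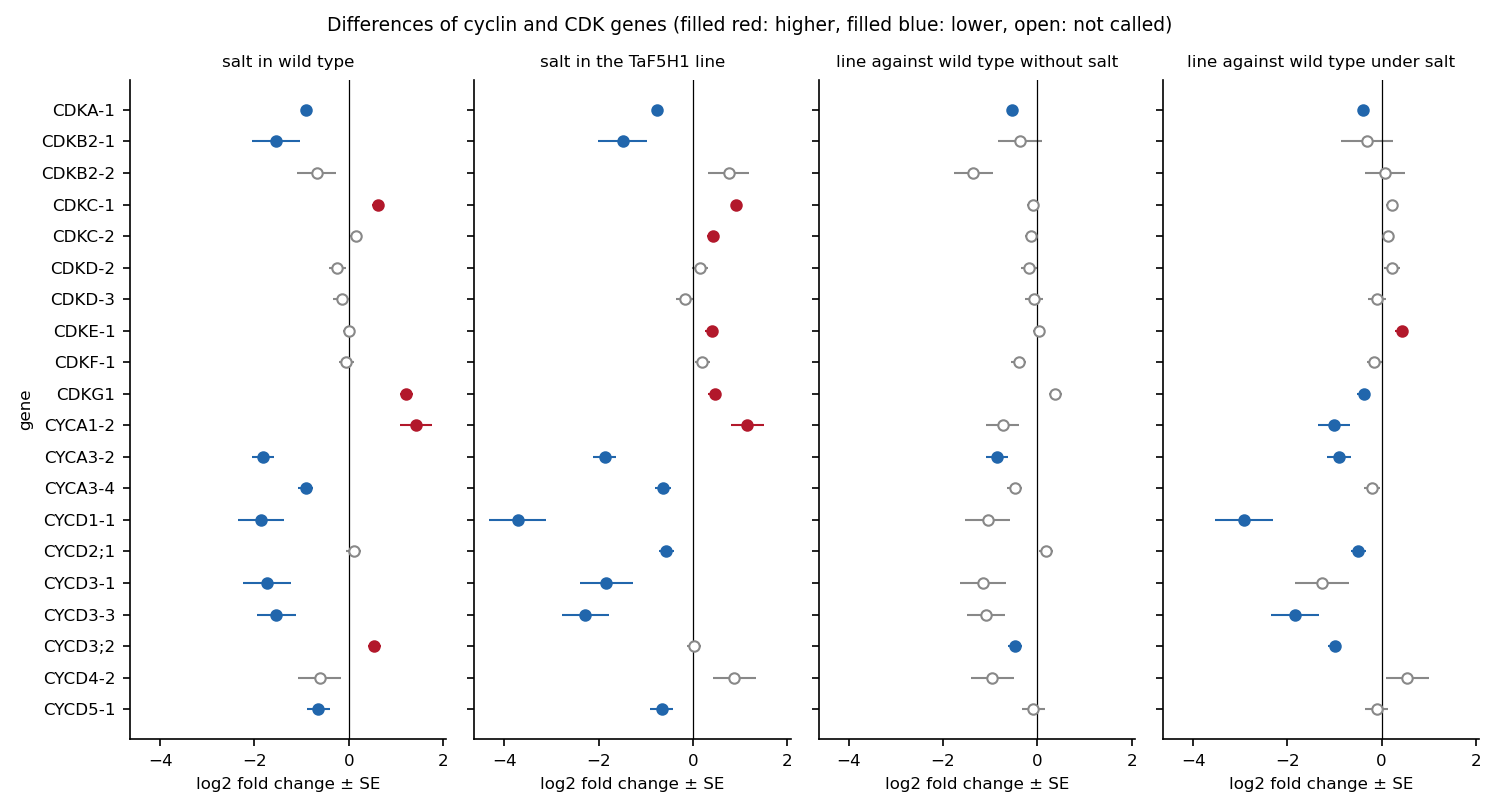
Log2 fold change ± SE of the 20 tested cyclin and CDK genes in 4 comparisons, with filled red points for higher, filled blue for lower and open points for not called. CYCD1-1 in the salt-treated line (-3.72) lies farthest from 0.

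Without salt, the line differed from wild type in few of the genes. CDKA-1, CYCA3-2 and CYCD3;2 were lower in the line, and none was higher. These 3 called members of 20 (15%) stand beside 13.9% of all genes (7.34% up and 6.58% down), so the share was near the background. Single libraries moved the count of 3 lower members: it was 1 without untreated wild type replicate 1 or untreated line replicate 2, 5 without salt-treated wild type replicate 3 and 7 without salt-treated line replicate 1. It was 2 without any 1 of the others except salt-treated line replicate 3, which left it at 3. The count of 0 higher members by edgeR was 1 at an unadjusted p under 0.05, and was 1 each by DESeq2 and by limma. The median log2FC (line over wild type) was -0.44, against 0.01 for all genes.

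CDKA-1, given above, measured 35.47 to 39.59 FPKM in the line and 49.03 to 54.35 FPKM in wild type, with a log2FC of -0.53 ± 0.10 (adjusted p = 0.00602). CYCA3-2 measured 4.21 to 5.20 FPKM against 6.65 to 10.66 FPKM (log2FC -0.85 ± 0.23, adjusted p = 0.0287). That call was not made without untreated wild type replicate 1 (log2FC -0.61, adjusted p = 0.136) or 3 (0.0634), or without untreated line replicate 1, 2 or 3 (0.0542 to 0.106). CYCD3;2 measured 8.59, 8.72 and 8.47 FPKM in the line against 12.15, 12 and 9.51 FPKM, all lower (log2FC -0.47 ± 0.14, adjusted p = 0.0426). It was not called without untreated wild type replicate 1 (0.148) or 2 (0.124), any 1 of the untreated line libraries (0.088 to 0.107), any 1 of the salt-treated wild type libraries (0.0642 to 0.0684) or salt-treated line replicate 2 (0.0511), nor with library totals alone, limma or no filter on low genes. CDKB2-2 lay just over the threshold, at 0.43, 0.74 and 1.08 FPKM in the line against 2.18, 2.03 and 1.22 FPKM (log2FC -1.36 ± 0.42, adjusted p = 0.0509). It was called by DESeq2 (adjusted p = 0.0144). It was also called by edgeR without salt-treated line replicate 1 (0.0234), untreated line replicate 3 (0.0383) or salt-treated wild type replicate 3 (0.0457).

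An alternative chosen after the data were seen left out both salt-treated line replicate 1 and salt-treated wild type replicate 3. The first stood apart from its group. The second held meristem transcripts and did not stand apart by correlation (r of 0.989 and 0.987 with its group). In that fit 9 members were lower and 1 was higher in the untreated line, beside 2520 lower and 2471 higher of all tested genes. With all libraries 1121 of all tested genes were lower and 1250 higher, so calls rose well beyond the members. Neither library belongs to the groups compared here, and they enter through the shared estimate of the spread. CYCD1-1 then had an adjusted p of 0.0076 at a log2FC of -1.05, where all libraries gave -1.06 ± 0.47 (0.158). CYCD3-1 had 0.00912 (0.14 with all libraries) and CYCD3-3 had 0.0128 (0.0953). In FPKM, CYCD1-1 measured 2.13 to 4.19 in the untreated line and 5.74 to 6.58 in untreated wild type. Those of CYCD3-1 were 1.03 to 1.76 and 2.60 to 3.16 FPKM, and those of CYCD3-3 were 1.03 to 1.55 and 2.33 to 2.74 FPKM, without overlap in the 3 genes.

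Under salt, the line had lower transcript levels of CDKA-1, CDKG1, CYCA1-2, CYCA3-2 and 4 D cyclins than salt-treated wild type. Of the 20, CDKE-1 was the 1 called higher. These 1 higher and 8 lower members of 20 (45%) stand beside 34.6% of all genes (15.6% up and 19.0% down). The median log2FC was -0.26, against -0.03 for all genes. The count of 8 was 4 without salt-treated wild type replicate 1 or 2, 3 without its replicate 3, 2 without salt-treated line replicate 3, 5 without its replicate 2 and 10 without its replicate 1. Comparisons that use the same libraries, such as both salt-treated groups here and above, are not independent of each other.

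CYCD3;2 was the member with the smallest adjusted p. It measured 8.24, 7.22 and 6.33 FPKM in the salt-treated line and 14.01, 14.26 and 14.42 FPKM in salt-treated wild type, well apart, with a log2FC of -0.995 ± 0.141 (adjusted p = 0.00204). CYCD1-1 measured 0.37, 0.06 and 0.18 FPKM against 0.90, 0.74 and 2.80 FPKM (log2FC -2.92 ± 0.62, adjusted p = 0.00684). All line libraries were lower, and a fit to the 2 groups alone gave an adjusted p of 0.0563. CYCD3-3 measured 0.12, 0.32 and 0.19 FPKM against 0.50, 0.43 and 1.41 FPKM (log2FC -1.84 ± 0.51, adjusted p = 0.0191). Without salt-treated wild type replicate 3, which held the meristem transcripts, its log2FC was -1.14 (adjusted p = 0.0823), and without salt-treated line replicate 3 it was -1.75 (0.069).

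CDKA-1 measured 18.10, 19.94 and 18.05 FPKM against 22.16, 24.39 and 25.39 FPKM, with no overlap (log2FC -0.39 ± 0.10, adjusted p = 0.0155). It was not called without salt-treated wild type replicate 2 (adjusted p = 0.055) or 3 (0.0577), or salt-treated line replicate 3 (0.0705). CYCA3-2 measured 1.04, 1.39 and 0.85 FPKM against 2.36, 1.74 and 1.97 FPKM (log2FC -0.91 ± 0.25, adjusted p = 0.0196). It was not called without salt-treated wild type replicate 1 (0.0727) or salt-treated line replicate 3 (0.081). CYCA1-2 measured 1.69, 1.34 and 2.07 FPKM against 3.01, 3.81 and 3.22 FPKM (log2FC -1.01 ± 0.34, adjusted p = 0.0364), and CYCD2;1 measured 8.72, 6.09 and 7.40 FPKM against 10.12, 9.80 and 10.78 FPKM (log2FC -0.49 ± 0.15, adjusted p = 0.029). In both genes all line libraries were the lower ones.

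The CYCA1-2 call was not made without any 1 of the salt-treated wild type libraries (adjusted p of 0.0688 to 0.108), salt-treated line replicate 2 or 3 (0.136 and 0.066), or untreated wild type replicate 1 or 3 (0.0506 and 0.0507). That of CYCD2;1 was not made without any 1 of the salt-treated wild type libraries (0.0591 to 0.0786) or salt-treated line replicate 2 or 3 (0.123 and 0.0909). CDKE-1 measured 12.89, 16.11 and 16.81 FPKM against 11.32, 10.61 and 11.50 FPKM, all higher in the line (log2FC 0.42 ± 0.13, adjusted p = 0.0283). It was not called without any 1 of the salt-treated wild type libraries (0.0645 to 0.0786) or salt-treated line replicate 2 or 3 (0.0963 and 0.107).

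The interaction, which subtracts the wild-type salt log2FC from that of the line, was called for 1 member, CDKG1. It stands beside 5.88% of all genes (2.92% up and 2.95% down), or 5.0% of the 20 members. CDKG1 rose by a log2FC of 1.22 ± 0.13 in wild type and 0.46 ± 0.13 in the line, a difference of -0.77 ± 0.19 (adjusted p = 0.0391). The annotation places AT5G63375 on the opposite strand over 448 bases of CDKG1, with 0 counts. In FPKM the untreated line (54.07 to 68.18) lay above untreated wild type (38.30 to 46.98), and the salt-treated line (68.15 to 70.30) lay below salt-treated wild type (82.78 to 95.07). The single contrasts were a log2FC of 0.38 ± 0.13 without salt (adjusted p = 0.0762, not called) and -0.38 ± 0.13 under salt (adjusted p = 0.0422, called). The contrast without salt was called by DESeq2 (adjusted p = 0.0202), by limma on log2(FPKM + 1) (0.0227) and by edgeR with library totals alone (0.0343). Of the fits that left out 1 library, only that without salt-treated line replicate 1 called it (0.0221). The interaction call was not made without any 1 of the untreated or salt-treated wild type libraries (adjusted p of 0.0748 to 0.0999), untreated line replicate 1 or 3 (0.0711 and 0.0657) or salt-treated line replicate 2 or 3 (0.0909 and 0.0973). Over those fits the log2 difference stayed between -0.83 and -0.67. The contrast under salt was likewise not called without any 1 of the salt-treated wild type libraries (0.0725 to 0.125), salt-treated line replicate 2 or 3 (0.116 and 0.138), untreated wild type replicate 2 or 3 (0.0548 and 0.0591) or untreated line replicate 1 (0.0549).

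For the remaining members the interaction was not called. CYCD1-1 had a log2 difference of -1.87 ± 0.78 (adjusted p = 0.152), CYCD2;1 had -0.67 ± 0.21 (0.0801) and CYCD3;2 had -0.52 ± 0.20 (0.121). Without salt-treated line replicate 1 each of these was called, at -2.68 (adjusted p = 0.023), -0.83 (0.003) and -0.65 (0.0123), as were CDKB2-2 at 1.63 (0.0489) and CDKE-1 at 0.48 (0.0416). With CDKG1, 2 members then had a higher and 4 a lower salt response in the line. The share over all genes in that fit is not given here, so these counts describe the members only. Over all genes, 498 interactions were higher and 503 lower with all libraries. Leaving out salt-treated wild type replicate 3 as well made these 2091 and 3682. The count of 0 members with a higher salt response in the line by edgeR was 2 at an unadjusted p under 0.05, and was 0 by DESeq2 and by limma.

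The 24 members under 1 FPKM included all 11 B cyclins, 7 A cyclins, CDKB1-1, CDKB1-2 and CDKD-1, and the D cyclins CYCD4;1, CYCD6-1 and CYCD7-1. CYCA3-3 and CYCB2-5 had 0 counts in all 12 libraries. Both have a close copy, CYCA3-2 (84.8% identity over 872 bases) and CYCB2-3 (95.2% over 618 bases), and how reads matching several genes were counted is not given. Of the 22 with counts, 16 had their highest group mean in untreated wild type and 19 their lowest in the salt-treated line. The same was not counted over all genes under 1 FPKM, so these numbers describe the members only. Summed over the 24 genes and not scaled to library totals, the libraries held 414 to 621 counts in untreated wild type and 208 to 348 in salt-treated wild type. For the line they held 293 to 338 untreated and 124 to 142 after salt.

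Of these, CYCB1;5 alone gave 32 to 108 counts a library, with no order among the groups (49 to 73, 70 to 97, 32 to 108 and 34 to 77 counts, in the order above). It shares 97.9% identity with CYCB1-2 over 386 bases, so their counts may be divided. The other 10 B cyclins summed to 243, 168 and 121 counts in untreated wild type, and to 42, 41 and 125 counts after salt. In the line they summed to 84, 101 and 149 counts untreated and to 59, 13 and 18 counts after salt. The highest salt-treated wild type library was again replicate 3, and the highest of the salt-treated line was replicate 1. CYCB1-2, whose upstream sequence is shown above, had 57, 52 and 28 counts in untreated wild type, 8, 0 and 14 after salt, 24, 14 and 28 for the line untreated and 8, 3 and 0 for the line after salt. Such counts are too few for a test of single genes here.

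Markers of young, dividing leaf tissue were also summed. The 6 genes (ANT, GIF1 and GRF factors) summed to 7.49, 7.51 and 5.19 FPKM in untreated wild type and 1.55, 1.57 and 4.96 FPKM after salt, with replicate 3 again highest. They summed to 9.23, 11.88 and 8.27 FPKM in the untreated line and 1.16, 1.53 and 1.34 FPKM in the salt-treated line. GRF5 reached at most 0.16 FPKM in any library. Of the 2 genes tested, GRF3 fell with salt in both genotypes (log2FC -1.50 and -4.75, adjusted p = 0.0204 and 2.6e-05), and GRF1 fell in the line (-1.32, adjusted p = 0.00387). GRF3 measured 1.34, 2.43 and 1.12 FPKM in untreated wild type and 0.18, 0.50 and 0.84 FPKM after salt, and 4.28, 5.55 and 3.07 FPKM and 0.18, 0.07 and 0.14 FPKM in the line, so it passed the level filter through the untreated groups. It was lower in the line under salt (-1.94, adjusted p = 0.0325), and its interaction was -3.25 (adjusted p = 0.0338). The wild type call was not made without untreated wild type replicate 2 (0.0948) or salt-treated wild type replicate 1 (0.0701) or 2 (0.0584). That under salt was not made without salt-treated wild type replicate 2 (0.0675) or 3 (0.132) or salt-treated line replicate 2 (0.129) or 3 (0.0858). The untreated line had the highest sums of these markers, but its differences from untreated wild type were not called for GRF1 or GRF3 (adjusted p = 0.206 and 0.069). ANT went the other way, at 0.69, 0.94 and 1.25 FPKM in the untreated line against 3.12, 1.77 and 1.29 FPKM in untreated wild type. The 10 B cyclins summed to 84 to 149 counts in the untreated line and to 121 to 243 in untreated wild type, which overlap. The part of these cells in the results on cyclins was not tested.

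**Figure D4:**
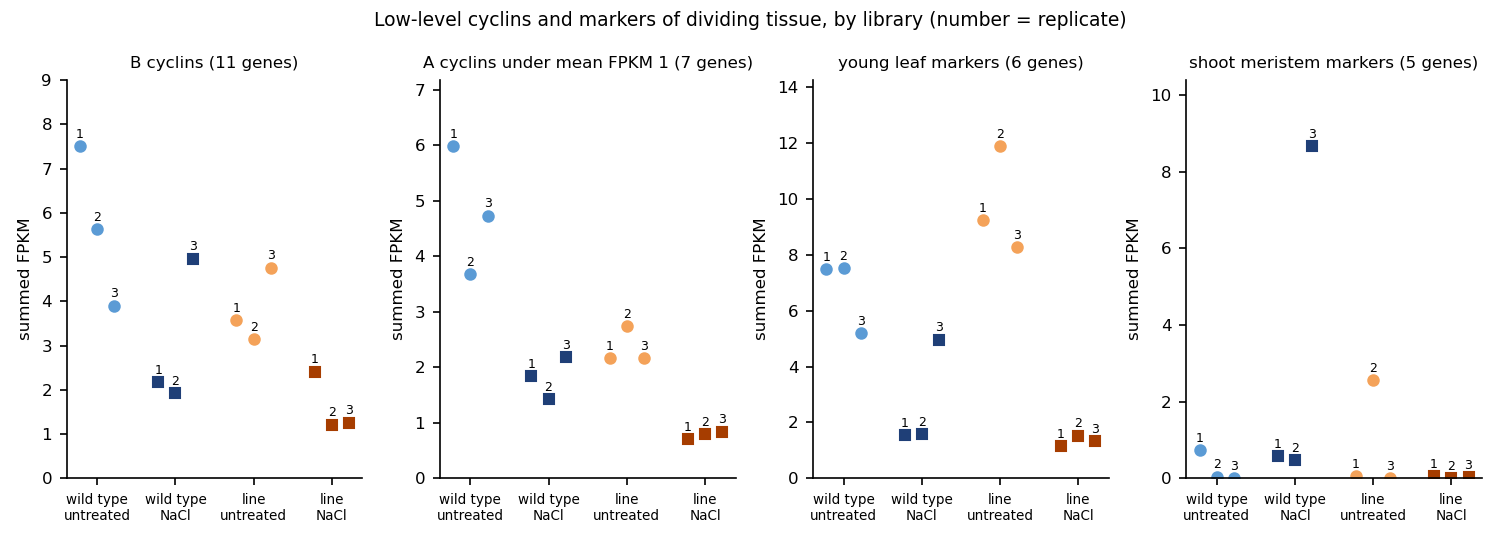
Summed FPKM, by library, of the 11 B cyclins, the 7 A cyclins under a mean of 1 FPKM, the 6 young leaf markers and the 5 shoot meristem markers (numbers are replicates). Salt-treated wild type replicate 3 has a meristem sum of 8.66 FPKM and a B cyclin sum of 4.96 FPKM, above 2.18 and 1.92 FPKM in its fellow libraries.

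The partners of these kinases and the genes they act on were taken as lists by locus. Of the CDK inhibitors, 12 of 16 were tested, and 4 rose and 1 fell with salt in wild type (median log2FC -0.20), against 3 and 5 in the line (-0.36). These 5 and 8 called genes of 12 stand beside 53.8% and 64.8% of all tested genes. The 1 that fell in wild type became 3 without salt-treated line replicate 1, and 2 without its replicate 2 or 3 or untreated line replicate 3. The 5 that fell in the line became 3 without untreated line replicate 2, salt-treated line replicate 2 or any 1 of the salt-treated wild type libraries. KRP6 rose from 8.38 ± 0.29 to 22.84 ± 0.36 FPKM in wild type and from 9.59 ± 1.81 to 33.43 ± 13.4 FPKM in the line (n = 3; log2FC 1.65 ± 0.25 and 2.05 ± 0.25, adjusted p = 0.00019 and 2.88e-05). SMR3, of the SIAMESE family, rose by 2.51 ± 0.49 and 3.23 ± 0.50 (adjusted p = 0.00123 and 0.000154). It averaged under 1 FPKM in both untreated groups, so it passed the level filter through the salt-treated ones. SMR6 rose in wild type (log2FC 1.15 ± 0.25, adjusted p = 0.00244) and had a log2FC of -0.01 ± 0.25 in the line. Its interaction was -1.15 ± 0.35 (adjusted p = 0.0712), and was called without salt-treated line replicate 1 (0.0144). KRP1 rose in both, in wild type not with library totals alone (adjusted p = 0.0766), and was higher in the line under salt (0.65 ± 0.17, adjusted p = 0.0146). That last call was not made without salt-treated wild type replicate 3 (0.0581) or salt-treated line replicate 2 (0.0589) or 3 (0.0633). KRP7 fell in both, by -1.20 ± 0.35 and -1.91 ± 0.38 (adjusted p = 0.0133 and 0.00102). It averaged under 1 FPKM in both salt-treated groups, so it passed the level filter through the untreated ones.

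Of the retinoblastoma, E2F and DP genes, 7 of 9 were tested, with 2 up and 1 down in wild type and 3 up and 1 down in the line (medians -0.21 and 0.39), beside the same 53.8% and 64.8% of all genes. The 3 that rose in the line were 1 without salt-treated line replicate 2, 2 without untreated line replicate 2 and 1 by limma on log2(FPKM + 1). E2F3, known as E2FA, an activator of S phase genes, fell from 1.64 ± 0.10 to 0.42 ± 0.06 FPKM in wild type (n = 3; log2FC -1.75 ± 0.29, adjusted p = 0.000345). E2F3 averaged under 1 FPKM in both salt-treated groups, so it passed the level filter through the untreated ones. In the line it fell by -0.80 ± 0.28 (adjusted p = 0.0238), a call not made without untreated line replicate 2 (0.0533) or salt-treated line replicate 2 (0.103). E2FD, an atypical E2F also called DEL2, rose in wild type (log2FC 2.02 ± 0.33, adjusted p = 0.000354). E2FB, an activator like E2FA, and RBR1, the retinoblastoma protein, rose in the line (0.65 ± 0.15 and 0.58 ± 0.20, adjusted p = 0.00264 and 0.0243). E2FB was also called higher after salt in wild type (0.40, adjusted p = 0.0466). That call was not made with library totals alone (0.20), without untreated wild type replicate 1 or 3 (0.121 and 0.0874), without salt-treated wild type replicate 1 or 2 (0.098 and 0.0783), without untreated line replicate 1 or 3 (0.0544 and 0.0515), or without salt-treated line replicate 2 or 3 (0.059 and 0.0578). The rise of RBR1 was not called without salt-treated line replicate 2 (0.0777) or with library totals alone (log2FC 0.32). Of the 3 tested three-repeat MYB genes, which read the MSA core, MYB3R-3, known as a repressor, rose in both genotypes (log2FC 0.67 ± 0.17 and 0.79 ± 0.17, adjusted p = 0.00594 and 0.00155). PC-MYB1, also called MYB3R1, rose in the line (1.02 ± 0.16, adjusted p = 0.000161) and had a log2FC of 0.25 ± 0.16 in wild type. Of all tested genes, 27.1% rose in wild type and 31.4% in the line.

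The S phase genes moved one way with salt. All 12 tested of 14 genes (replication helicase and clamp subunits, nucleotide reductase and polymerase alpha) fell with salt in wild type and in the line, with median log2FC of -2.55 and -2.21. When any 1 library was left out, or both salt-treated line replicate 1 and salt-treated wild type replicate 3, 12 fell in both genotypes. Of all tested genes, 26.7% fell in wild type and 33.5% in the line. Of the 12, 9 averaged under 1 FPKM in both salt-treated groups and so passed the level filter through the untreated ones, so the count and the medians are a description and no support. MCM7, of the replication helicase, measured 5.18, 3.99 and 5.42 FPKM in untreated wild type and 0.25, 0.21 and 0.28 FPKM after salt. Its log2FC was -4.07 ± 0.52 (adjusted p = 5.5e-05), with the groups well apart. MCM5 measured 5.13 ± 0.20 and 0.73 ± 0.10 FPKM in wild type (log2FC -2.61 ± 0.30, adjusted p = 2.18e-05) and 3.10 ± 0.31 and 0.60 ± 0.28 FPKM in the line (n = 3; log2FC -2.10 ± 0.30, adjusted p = 9.36e-05). In the line MCM3 and POLA, a catalytic subunit of polymerase alpha, fell by -2.95 ± 0.40 and -3.28 ± 0.46 (adjusted p = 6.72e-05 and 7.89e-05). PCNA2, the sliding clamp, fell from 11.82 ± 0.74 to 3.15 ± 0.54 FPKM in wild type (log2FC -1.71 ± 0.20, adjusted p = 2.38e-05).

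Between genotypes, 6 of the 12 S phase genes were lower in the line without salt and 4 under salt, with medians of -1.17 and -0.82, beside 6.58% and 19.0% of all genes. The 9 that passed the level filter through the untreated groups had their highest mean in untreated wild type, and lay under 1 FPKM after salt. These counts and medians are therefore also a description and no support. The 6 were 11 by DESeq2, by limma and at an unadjusted p under 0.05, and the 4 were 2 by limma. TSO2, of ribonucleotide reductase, measured 12.55, 11.55 and 11.22 FPKM in the untreated line and 28.51, 21.09 and 22.88 FPKM in untreated wild type (log2FC -1.13 ± 0.25, adjusted p = 0.0117, and 0.0516 without untreated wild type replicate 1). MCM6 and MCM4 had log2FC of -1.63 ± 0.38 and -1.57 ± 0.40 without salt (adjusted p = 0.0168 and 0.0228). The count of 6 depended on single libraries. It was 0 without untreated wild type replicate 1, 2 without replicate 2 or 3, 1 without untreated line replicate 1 or 2, 11 without salt-treated line replicate 1 and 10 without its replicate 3. The count of 4 was 0 without salt-treated line replicate 2 or 3, 1 without salt-treated wild type replicate 3, 2 without its replicate 2 and 7 without salt-treated line replicate 1.

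**Figure D5:**
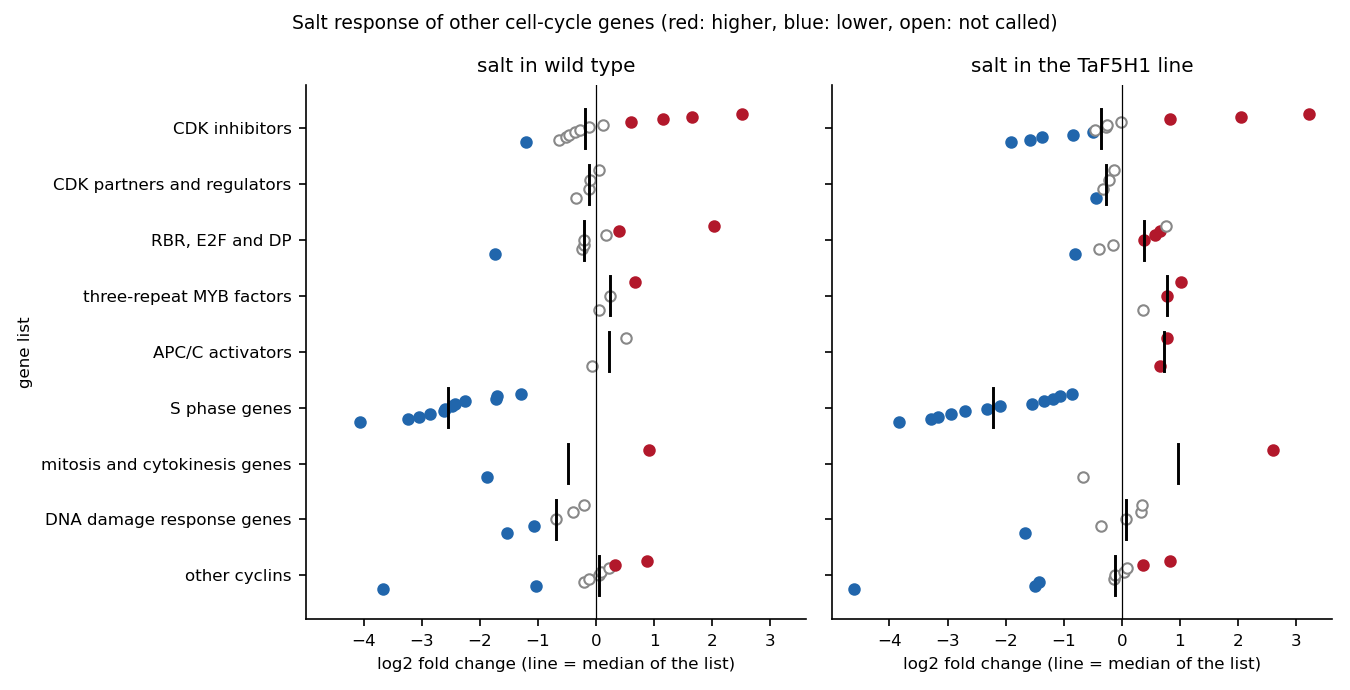
Salt log2 fold change of the tested genes of 9 cell-cycle lists in wild type and the line, with red for higher, blue for lower, open for not called and a black line at each list's median. All 12 S phase genes lie below 0 in both panels.

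Few of the other lists moved one way. Of the 12 mitosis and cytokinesis genes 2 passed the level filter, KN through the untreated groups alone. KN, the cytokinesis syntaxin, fell in wild type (log2FC -1.89 ± 0.41, adjusted p = 0.00225), and KIN7B, a kinesin also called TES, rose in wild type (0.90 ± 0.18, adjusted p = 0.00141) and in the line (2.61 ± 0.19, adjusted p = 6.4e-07). Of 5 tested DNA damage response genes, 2 fell in wild type and 1 in the line, beside 26.7% and 33.5% of all tested genes. SOG1, a transcription factor of that response, fell in wild type (log2FC -1.53 ± 0.24, adjusted p = 0.000234), with 0.08 ± 0.23 in the line. PARP1 (AT2G31320), an enzyme of DNA strand break repair, fell in both (-1.08 ± 0.22 and -1.67 ± 0.24, adjusted p = 0.00172 and 0.000102). It passed the level filter through the untreated groups, with means under 1 FPKM after salt. The list gave PARP1 and PARP2 each other's loci, and both genes were kept and named by their deposited symbols. Both APC/C activators tested, FZR1 and FZR2, rose in the line (0.78 ± 0.24 and 0.66 ± 0.22, adjusted p = 0.014 and 0.0181), beside 31.4% of all tested genes. Those 2 calls were not made with library totals alone (log2FC 0.53 and 0.39). The FZR1 call was also not made without untreated line replicate 2 (adjusted p = 0.055) or salt-treated line replicate 2 (0.0648), nor that of FZR2 without untreated line replicate 1 or 3 (0.0686 and 0.0569) or salt-treated line replicate 2 (0.0603). Of the 4 tested CDK partners and regulators, CKS1 alone was called, lower with salt in the line (-0.44 ± 0.15, adjusted p = 0.0182), where 64.8% of all tested genes were called. It was not called without untreated line replicate 2 (-0.27, adjusted p = 0.0706) or salt-treated line replicate 3 (0.056).

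Of the other cyclins 9 of 16 were tested, with 2 up and 2 down in wild type and 2 up and 3 down in the line, beside 53.8% and 64.8% of all genes called. The 2 that fell in wild type were 1 without untreated wild type replicate 1 or salt-treated wild type replicate 3. By limma 1 rose in each genotype and 5 fell in the line. CYCU4-1, of the P-type cyclins, measured 7.94, 5.95 and 9.99 FPKM in untreated wild type and 0.29, 0.57 and 0.78 FPKM after salt. In the line it measured 0.25, 0.72 and 0.77 FPKM untreated and 0.05, 0.00 and 0.00 FPKM after salt. The untreated line overlapped salt-treated wild type. Untreated wild type was the only group with a mean above 1 FPKM, so the gene passed the level filter through that group alone. The log2FC was -3.67 ± 0.46 for salt in wild type (adjusted p = 4.61e-05) and -3.86 ± 0.46 for the line without salt (adjusted p = 0.000643).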

How the data were processed

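HISAT2 2.0.1, cutadapt 1.9.1, bcl2fastq 2.17.1.14 and the build TAIR10 are listed per the submitters' processing notes. Which program counted reads, and whether it used strand, is not given in the sources used here. The authors deposited raw read counts and FPKM per gene and library, and FPKM recomputed from counts, exonic length and totals differed by at most 0.005. Tests used the deposited counts with edgeR 4.0.16 (quasi-likelihood, TMM factors, 1 mean per group, 17038 genes with mean FPKM of at least 1, Benjamini-Hochberg adjustment, threshold 0.05) in R 4.3.3. The code was run on simulated data with few changed genes, in salt-treated wild type alone and equally up and down. That run does not test how libraries are scaled where most genes are called, as with salt here. Alternatives were library totals, median-of-ratios factors, DESeq2 1.42.0, limma 3.58.1 on log2(FPKM + 1) and log2(FPKM + 0.1), other filters, only the 2 groups compared, a replicate block and leaving out each library. Every member over the filter was described, and from each list the 3 called genes with the smallest adjusted p per comparison could be named. Members and lists were chosen with earlier results of these data known. P-values measure the spread between libraries, which are called biological replicates per the labels. Proteins were not used here, and 1 upstream sequence is not reported here.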

Additional observations from a re-analysis of the deposited data

Results flagged for a closer look

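The salt response differed between genotypes, by the interaction test, for 4 of the named genes. CDKG1 had an interaction of -0.77 (edgeR adjusted p = 0.0391), which was not called in 10 of the 12 fits that left out 1 library (adjusted p of 0.0657 to 0.0999). KIN7B, a kinesin of cytokinesis, had 1.71 ± 0.26 (adjusted p = 0.00967). It measured 1.75 to 2.37 FPKM in untreated wild type and 3.22, 3.36 and 3.68 FPKM after salt. In the line it measured 0.78, 0.97 and 1.27 FPKM untreated and 4.42, 5.79 and 5.23 FPKM after salt, so the line was the lower genotype without salt and the higher one under it. SOG1, of the DNA damage response, had 1.61 ± 0.33 (adjusted p = 0.0234), which was not called in 9 fits that left out 1 library (adjusted p of 0.0514 to 0.071). It measured 13.55, 13.58 and 11.98 FPKM in untreated wild type and 3.78, 3.78 and 4.27 FPKM after salt, and 8.47, 11.30 and 10.70 FPKM and 5.05, 11.59 and 10.39 FPKM in the line. The lowest value in the salt-treated line was that of replicate 1, which stood apart from its group. GRF3, a marker of young leaf tissue and no member, had -3.25 (adjusted p = 0.0338), with means of 1.63 and 0.507 FPKM in untreated and salt-treated wild type and 4.30 and 0.13 FPKM in the line. It was not called in 8 fits that left out 1 library (adjusted p of 0.0646 to 0.0921) nor with a replicate block (0.0527).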

How the results depend on the processing

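No called member changed direction under any alternative run. Of the other cyclins, CYCU4-1 had an interaction of -0.93 that was not called (adjusted p = 0.583) and a called 1.903 by limma on log2(FPKM + 1). Counts of called members moved as follows. With a mean FPKM of at least 5, fewer genes were tested, and salt lowered 1 in wild type and 2 in the line and raised 3 in the line, and 4 were lower in the line under salt. Library totals alone and limma with either pseudocount gave 2 raised by salt in the line and 1 higher in the line without salt. DESeq2 gave 1 higher and 5 lower in the line without salt and 2 lower interactions, limma on log2(FPKM + 1) also 2, and limma on log2(FPKM + 0.1) gave 1 lower without salt. A fit to the 2 groups compared gave 3 raised by salt in the line, 7 lower in the line without salt, and 0 higher and 2 lower under salt. No filter gave 0 interactions. Without both salt-treated line replicate 1 and salt-treated wild type replicate 3, 1 was higher and 9 were lower without salt, with 1 higher and 4 lower interactions. Leaving out 1 library gave 4 to 4 raised and 5 to 8 lowered by salt in wild type, 4 to 6 and 6 to 9 in the line, 0 to 1 higher and 1 to 7 lower without salt, 0 to 1 and 2 to 10 under salt, and 0 to 2 and 0 to 4 for the interaction. Over all genes, the 1250 higher and 1121 lower without salt became 1908 and 2084 with 2 groups, 1690 lower by DESeq2 and 2471 and 2520 without both libraries. The 2652 and 3236 under salt became 1260 and 740 with 2 groups. The 498 and 503 interactions became 1330 and 1201 by DESeq2, 837 lower with library totals, 1080 and 957 lower by limma, and 2091 and 3682 without both libraries. The share of calls that were higher was 66.4% with library totals against 52.7% without salt, and 32.8% against 49.8% for the interaction. The causes were not tested.

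Deviations from group means had r of -0.284 to 0.273 over 18 pairs of same-numbered libraries, against -0.268 to 0.307 over 36 other pairs. These values show no shared deviation by number and cannot settle whether the numbers pair samples. A replicate block gave 0 called member interactions and 305 higher ones over all genes. The low counts of members under 1 FPKM limit what can be said of single B cyclins.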
